A study of Mus musculus with 5 samples.

Results

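The plate-based part of a mouse kidney single-cell series was examined by the letter that each plate carries in its name. It is 1 sample of 8 plates with 96 wells each, prepared by Smart-seq2, a method that copies and sequences RNA along the whole length of transcripts, well by well. The letter A stands on plates 1 and 5, B on plates 2 and 6, and C on plates 3, 4, 7 and 8. Wells with at least 20000 reads on genes and at least 1000 genes were kept, which left 473 of 768 wells: 89 on A plates, 132 on B plates and 252 on C plates. All 295 wells left out had under 20000 reads, and none was lost to the gene minimum alone. The 7 wells just inside the read minimum (20055 to 21816 reads) had a median of 2873 genes, and the 9 wells just outside it (18229 to 19930 reads) a median of 3408 genes.

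All plates share 1 label set: kidneys of 8-week-old C57/BL6 mice, with 3 mice pooled per library, in a series on reversible unilateral ureteric obstruction in which droplet libraries represent sham surgery, obstruction for 2 days, obstruction for 7 days, and reversal. The label says that the plates together hold every time point. It does not say which wells or plates hold which time point, which mouse a plate came from, how cells were sorted into wells or what the letters stand for. The letters are therefore given no condition here, and p-values measure the spread between plates, which may be technical. The question the grouping answers is whether plates with different letters differ by more than plates with the same letter.

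Mononuclear phagocytes are the macrophages, monocytes and dendritic cells of a tissue. Kidney macrophages engulf debris, carry complement C1q and present antigen on MHC class II molecules, monocytes enter from blood through the chemokine receptor Ccr2, and dendritic cells carry antigen to lymph nodes. Plasmacytoid dendritic cells, a further type marked by the receptor Siglech, are known for making type I interferon.

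The plates differed in how many wells passed and in how evenly reads were spread. In the order A (plates 1 and 5), B (2 and 6) and C (3, 4, 7 and 8), which all lists below follow, 67 and 22, 78 and 54, and 82, 82, 51 and 37 wells were kept. Plates held 4692860 gene reads (plate 5) to 44790073 (plate 4), and the median kept well had 35510 reads on plate 8 and 142085 to 554339 on the others. The 5 deepest wells gave 76.8% of the reads of plate 8 and 55.4% of those of plate 5, against 13.9 to 34.1% on the other plates. The median well had 2632 genes on plate 1, the lowest, and 3268.5 to 4202.5 on the others. Spike-in RNA took a median of 4.01% of reads on plate 3 and 3.13% on plate 4, against 0.381 to 0.656% on the other plates. Sums per plate thus weigh few wells on plates 5 and 8, and for some of the genes below the share of reads from the single deepest contributing well is given.

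**Figure D1:**
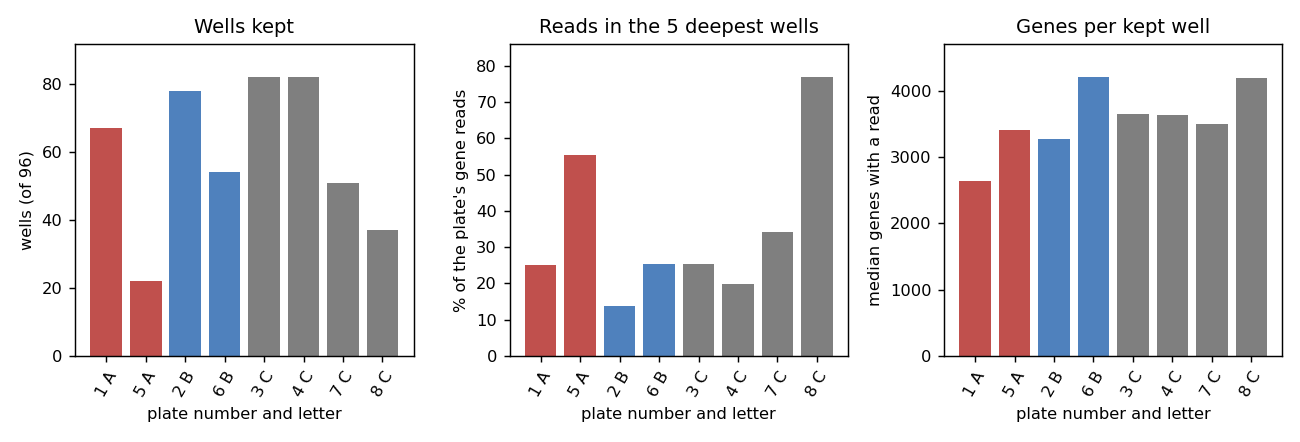
Bars give, for each plate (number and letter, coloured by letter), the wells kept of 96, the percentage of the plate's gene reads that came from its 5 deepest wells, and the median number of genes with a read per kept well. Plate 5 kept the fewest wells (22), and plate 8 drew 76.8% of its reads from 5 wells.

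The kept wells were phagocyte wells on every plate. All 473 carried at least 3 of Csf1r, Fcer1g, Tyrobp, Lyz2 and Cd68 at 10 CPM or more, where CPM is the usual scaling of a gene's reads to an equal total of gene reads. Csf1r, the receptor for the macrophage growth factor CSF1, was at 10 CPM or more in 97.01 and 100% of wells on the A plates, 100 and 98.1% on the B plates and 100, 98.8, 100 and 100% on the C plates. Lyz2, the lysozyme of phagocytes, reached 100% on each plate, and C1qa, a subunit of C1q, 94.0 to 100%. Adgre1, the macrophage surface protein F4/80, was less even: 62.7 and 95.5% on A, 87.2 and 88.9% on B and 89.02, 78.05, 68.6 and 83.8% on C. Plate 1 was lowest for Adgre1 and plate 5, with the same letter, was highest.

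Wells differed in subtype markers on each plate. Ccr2 was found in 70.6 to 100% of wells and Mgl2, a lectin of type 2 dendritic cells and some macrophages, in 74.4 to 91.9%. Cd209a, a lectin of monocyte-derived and type 2 dendritic cells, ranged from 21.8% on plate 2 to 64.9% on plate 8. Ly6c2, a mark of classical monocytes, ranged from 1.49% on plate 1 to 24.1% on plate 6. Mki67, a protein of dividing cells, was in 15.9 to 54.1% of wells, again highest on plate 8. Within C the share of wells with Mki67 spanned the full range over all plates, with 16.4 and 40.9% of wells on A, 21.8 and 24.1% on B and 21.95, 15.9, 25.5 and 54.1% on C.

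Markers of T, natural killer and mast cells were low or listed at 0, and those of other cell types were uneven. Of the 8 T cell markers, 5 were listed at 0 on every plate (Cd3e, Cd3g, Trbc2, Lck and Cd28), and the list summed to 0.0728 to 39.2 CPM. Of the natural killer cell markers, 4 of 8 were at 0, including Ncr1, and of the mast cell and basophil markers 6 of 8, including Cpa3. The neutrophil genes S100a9, Retnlg and Cxcr2 were listed at 0, while S100a8 reached 10 CPM in 3 of 67 wells on plate 1 and in none on the others. S100a8 had 1471 reads on plate 1, 3 on plate 2, 2 on plate 3 and none elsewhere. Jund, an AP-1 gene that most cells use, was also listed at 0 on every plate, so these zeros do not show that a cell type was absent. Proximal tubule markers were present at uneven level, with summed values of 2519 and 55.3 CPM on A, 261 and 699.7 on B, and 1959.7, 1979, 468 and 805 on C. Gpx3 made up most of that sum, with 35.5 to 2028 CPM. B cell markers summed to 393 to 2599 CPM, nearly all from Ighm and Cd79b (2301 and 296 CPM on plate 8), with Ms4a1 and Fcmr at 0 on every plate. Endothelial markers summed to 57.8 to 694 CPM, where Eng alone gave 692 CPM on plate 8 with Pecam1, Emcn and Kdr each below 1 CPM. Podocyte markers summed to 69.1 to 319. Fibroblast and mural markers summed to 558 CPM on plate 3 and 559 on plate 7, and to 0.129 to 29.8 CPM on the other plates. Xist was listed at 0 on every plate, and the Y-linked gene Eif2s3y had 13.5 to 205.7 CPM.

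**Figure D2:**
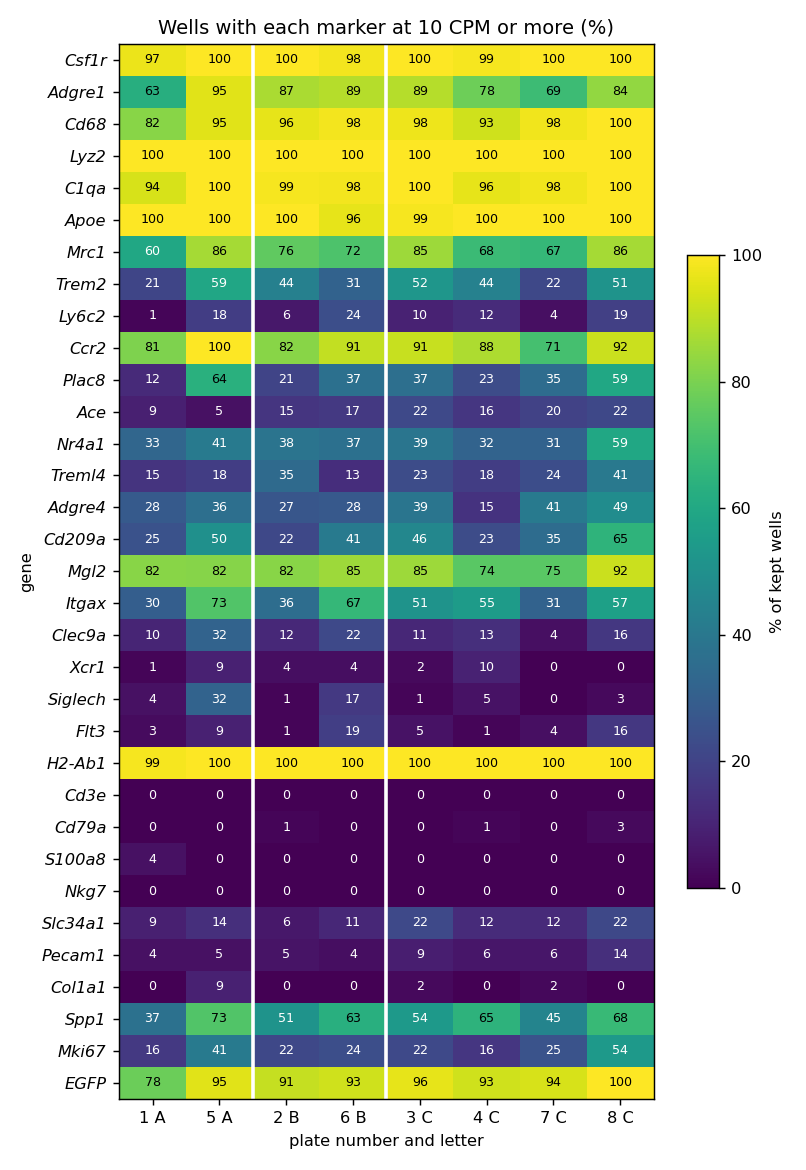
Each cell gives the percentage of kept wells on a plate (columns, grouped by letter) in which a gene (rows) reached 10 CPM or more, from dark (0%) to light (100%). Csf1r, Lyz2, C1qa, Apoe and H2-Ab1 lie at 94.0% or above on every plate, Cd3e and Nkg7 lie at 0%, and Siglech ranges from 0% on plate 7 to 31.8% on plate 5.

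Plates with the same letter were about as alike over genes as plates with different letters. Spearman's correlation of log CPM over the 14858 genes tested, a description in which the points share plates, ranged from 0.658 to 0.837 in the 8 pairs of plates with the same letter, with a median of 0.73. In the 20 pairs with different letters it ranged from 0.648 to 0.839, with a median of 0.732. The A plates were the least alike of all same-letter pairs (0.658), and the B plates the most (0.837). Plates 1 to 4 and plates 5 to 8 each hold the letters A, B, C and C, and pairs within those sets had a median of 0.748 (12 pairs) against 0.724 across them (16 pairs). No 2 plates held identical values.

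**Figure D3:**
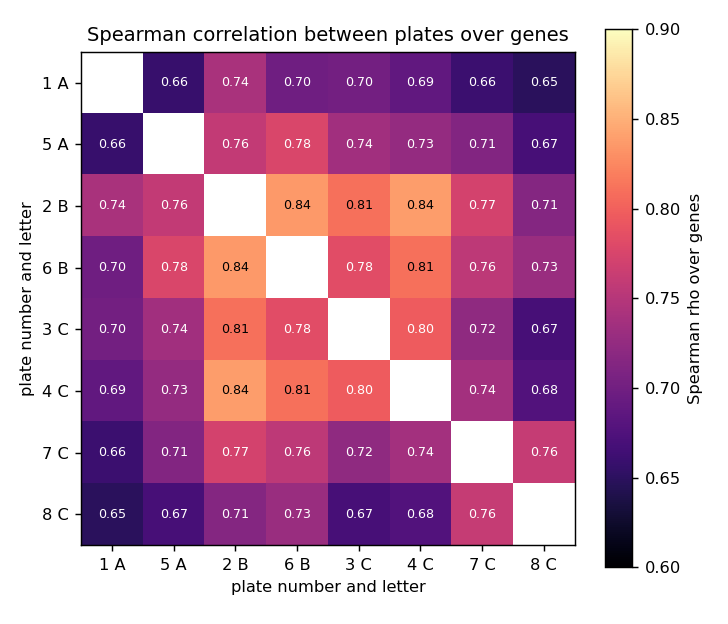
Spearman correlation between each 2 plates (number and letter on both axes) over the 14858 genes tested, with the diagonal left blank. The lowest values lie in the rows of plate 1 and plate 8, and plate 1 correlated with plate 5 of the same letter at 0.658.

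No gene passed the adjusted threshold of 0.05 between any 2 letters. Reads were summed per plate and tested with edgeR's quasi-likelihood test over 14858 genes, with 8 plates in 1 fit. The lowest Benjamini-Hochberg adjusted p was 0.806 for A against B, 0.61 for A against C and 1 for B against C. At an unadjusted p under 0.05 there were 581 genes (3.91%), 1008 (6.78%) and 405 (2.73%). DESeq2's Wald test on the same sums gave 211, 786 and 95 genes, and edgeR without the filter on low genes gave 3, 70 and 0. The spread between plates was wide, with a common biological coefficient of variation of 1.34. Counts were simulated with the spread that the fit gave as a trend over gene level, not with this common value. On these counts the edgeR test found 0%, 0% and 1% of genes set to differ 4-fold. It found 5%, 8% and 15% of those set to differ 16-fold, with 0 false calls. Differences of those sizes were therefore not detectable for most genes with these plates. The genes named below are those with the smallest p in each direction, which did not pass, among genes whose plates did not overlap, with a mean of at least 30 CPM in the higher letter and at 1 CPM or more in at least 20% of its wells.

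Levels summed over plates, those of the marker lists above included, are CPM after TMM scaling, while CPM of single wells are not so scaled. TMM is edgeR's correction for plates in which few genes take many reads, and fold changes are log2 with the standard error. The scaling mattered. With total reads in place of TMM, the median log2 fold change of all genes moved from 0.00 to -0.54 for A over B, from -0.33 to -0.48 for A over C and from -0.21 to 0.16 for B over C. Fold changes are best read against those medians. Of the genes named below by smallest p, Gsk3b and Skil for A against B, Ssr1 for A against C and Appl2 for B against C overlapped between the letters with total reads. Of the list genes printed, so did Mx1, Cd74 and H2-Ab1 for A against B and Iigp1, Tap1 and Tapbp for A against C.

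Between A and B, genes higher on both A plates were led by Malat1, a long noncoding RNA kept in the nucleus (chromosome 19, 5795690 to 5802672, minus strand, GRCm38). It had 6907 and 8302 CPM on A, 2017 and 1328 on B and 2555, 2012, 5961 and 6001 on C. The A plates lay above the B plates under both scalings, and above every C plate under TMM but not with total reads, with a log2 fold change of 2.18 ± 0.57 for A over B. On plate 5, 71.03% of its reads came from 1 well. Ifi47, an interferon-inducible GTPase, had 306 and 295 CPM on A, 23.1 and 62.9 on B and 65.5, 129, 104 and 125 on C, so that A again lay above all other plates (2.81 ± 0.84). By wells A did not lie above. Ifi47 reached 10 CPM in 16.4 and 40.9% of wells on A, 20.5 and 20.4% on B and 25.6, 34.1, 17.6 and 35.1% on C. It reached 1 CPM in 39.3% of A wells, 43.2% of B wells and 47.2% of C wells. Rab7b, a small GTPase of late endosomes, had 561 and 728 CPM on A against 117 and 153 on B (2.26 ± 0.69), with the C plates at 232, 112, 251 and 309. Rab7b reached 10 CPM in 22.4 and 86.4% of wells on A and in 47.4 and 57.4% on B, so by wells plate 1 lay below B and plate 5 above.

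Ptprc, the pan-leukocyte protein CD45, had 1712 and 1279 CPM on A and 560.4 and 630.2 on B (1.33 ± 0.47), while the C plates spanned 1204, 866, 917 and 896. Taken as a mean of log values over wells rather than a sum of reads, its difference had the opposite sign (-0.81). Cd300ld, a myeloid receptor of the CD300 family, had 694 and 485 CPM on A and 172 and 185 on B. A further set was high on plate 1 and close to B on plate 5. Ssr1, part of the protein-import complex of the endoplasmic reticulum, had 1927 and 213 CPM on A and 149 and 157 on B. Gnb1, a G protein beta subunit, had 2309.9 and 327 CPM on A and 183 and 196 on B, and the kinase gene Gsk3b had 827 and 42.6 CPM on A and 34.4 and 22.2 on B. Skil, a repressor of SMAD signalling, had 818 and 83.7 CPM on A and 63.01 and 40.4 on B. For these 4 genes plate 1 lay well above plate 5, and the A mean rests on it. Mbnl1, Plekhm3 and Slfn1 complete the 12. Mbnl1, a splicing factor, had a value near 0 (-0.0092) as a mean of log values over wells.

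Of the genes lower on both A plates, N4bp2l1 was close to absent there in reads. It had 11 and 4 reads on A, 2912 and 1892 on B and 6484, 2429, 1182 and 3593 on C, or 0.37 and 0.888 CPM against 51.2 and 68.8 CPM on B and 165, 46.4, 29.7 and 231 on C (-6.66 ± 1.49 for A over B). All other plates were far above A, and on plate 8 1 well gave 93.6% of its reads. It reached 1 CPM in 13.5% of A wells, 36.4% of B wells and 40.1% of C wells. Nipa2, a magnesium transporter, had 0.907 and 0.888 CPM on A, 81.03 and 55.3 on B and 64.7, 45.3, 20.7 and 8.04 on C (-6.24 ± 1.62). Adipor1, a receptor for adiponectin, had 11.1 and 13.1 CPM on A, 221 and 200.2 on B and 54.8, 211, 199 and 785 on C (-4.12 ± 1.16). In CPM the A plates were 12.1 ± 1.40 (SD, n = 2) and lay close together, whereas the C plates spread over more than 10-fold. On plate 8, the highest, 1 well gave 50.7% of the Adipor1 reads. By wells the A plates were not close: Adipor1 reached 10 CPM in 16.4 and 50% of wells on A. It did so in 61.5 and 66.7% on B and in 40.2, 58.5, 49.0 and 75.7% on C, so plate 5 lay above plates 3 and 7. Colgalt1, which adds galactose to collagen, had 2.32 and 8.66 CPM on A and 52.9 and 159 on B.

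The rest of the 12 lower on A lay at 1.33 CPM or less on both A plates apart from Ear2. They were Cpsf7 (mRNA 3′ end processing), Cyth2 (an exchange factor for ARF GTPases), the tetraspanin gene Tspan3, the ubiquitin ligase gene Arih2, Klc4 (a kinesin light chain), Cul2 (a scaffold of ubiquitin ligases) and the lysosomal membrane gene Tmem192. Their B plates had 18.2 (Cpsf7, plate 2) to 83.5 CPM (Tspan3, plate 6). Ear2, a secreted ribonuclease, had 20.6 and 7.33 CPM on A and 242 and 155 on B. Ear2 belongs to a family of near-identical genes, among which reads can be split, and its level is uncertain. Plate 1 also had the fewest genes per well, and its part in these low values was not tested. With each well thinned to 20000 reads, all 24 genes named for A against B kept their direction. They were chosen from the same reads for plates that do not overlap, so this is no sign of stability.

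Among the gene lists, which were chosen with earlier results of these data known, none held a gene that passed edgeR's test for A against B. DESeq2's Wald test called 2 of 316 list genes (0.633%, against 1.42% of all genes), Chil3 and Socs2, both lower on A. Over all genes, both A plates lay above both B plates in 13.8% of genes and below in 22.1% (6.93% and 30% with total reads). Of the interferon response list, 8 of 20 genes lay above on both A plates and none below, and with total reads 6 lay above and 1 below. Its median log2 fold change was 1.92, against 0.00 for all genes, 1.48 against -0.54 with total reads, and 0.06 against -0.16 as a mean of log values over wells. Oasl2, an antiviral enzyme-like protein, had 489 and 277 CPM on A and 43.9 and 115 on B. Usp18, which removes the ubiquitin-like ISG15 from proteins, had 165 and 94.4 CPM on A and 18.04 and 6.44 on B, and the antiviral GTPase gene Mx1 had 53.7 and 290.1 CPM on A and 53.4 and 39.8 on B. Ifit3, also induced by interferon, had 64.9 and 77.1 CPM on A and 11.1 and 14.1 on B. Isg15 itself did not separate the letters, with 0.0672 and 12.9 CPM on A and 4.71 and 1.71 on B.

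Of the MHC class II presentation list, 6 of 12 genes lay above B on both A plates, and none below. With total reads 1 lay above and 1 below. The list's median was 0.60 against 0.00 for all genes, and -0.02 against -0.54 with total reads. As a mean of log values over wells it was -0.42, against -0.16 for all genes. Cd74, the chain that guides MHC class II molecules, had 48552 and 22281 CPM on A and 18252 and 18848 on B, and H2-Ab1, an MHC class II beta chain, had 28206 and 15682 CPM on A and 8584 and 13421 on B. In the complement and Fc receptor list the count was likewise 6 of 14, with 2 below, and with total reads 2 lay above and 3 below. Of the chemokines 5 of 17 lay above and 2 below under TMM, and 4 above and 3 below with total reads. Their median was 0.65 against 0.00 for all genes, and 0.03 against -0.54 with total reads. Ccl2, the ligand of Ccr2, had 2060.4 and 454 CPM on A and 321 and 318 on B (1.98 ± 0.92), and Ccl3 had 822 and 611 CPM on A and 245 and 143 on B (1.89 ± 0.80). Ccl5, a chemokine for T cells and monocytes, ran the other way, with 0.269 and 3.33 CPM on A and 7.16 and 126 on B.

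Lists with many genes below B included matrix and repair (7 of 17, and 8 of 17 with total reads), immediate early and heat shock genes (6 of 18 under both), transcription factors (6 of 19, and 9 of 19) and glycolysis (4 of 14, and 8 of 14). In the same order 1, 2, 1 and 3 genes lay above B under TMM, and 1, 0, 0 and 0 with total reads. Of glycolysis, Eno1 and Hk2 were among those above under TMM and overlapped with total reads. The background of 22.1% and 30% is high, so these shares are near it for several lists. Spi1, the factor PU.1 that specifies myeloid cells, had 119 and 80.2 CPM on A, 604 and 633 on B and 58.03, 611, 381 and 463 on C (-2.63 ± 0.93 for A over B), with plate 3 below both A plates. Spp1, the secreted phosphoprotein osteopontin, had 197 and 378 CPM on A, 1211 and 427 on B and 401, 749, 2582 and 1631 on C. Jun, a subunit of the factor AP-1, had 25.4 and 43.1 CPM on A and 279.5 and 275 on B. Pfkl, an enzyme early in glycolysis, had 0.672 and 12.2 CPM on A and 94.3 and 95.7 on B, and Hk1, the first enzyme of the pathway, 0.974 and 3.998 CPM on A and 36.3 and 37.1 on B. Gapdh and Aldoa, later enzymes at higher level, overlapped between the letters under TMM, and with total reads both A plates lay below B. Of the tubule injury list, 4 of the 7 genes tested lay below, among them Krt8 and Krt7 with at most 0.444 CPM on A and at most 17.0 on B.

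**Figure D4:**
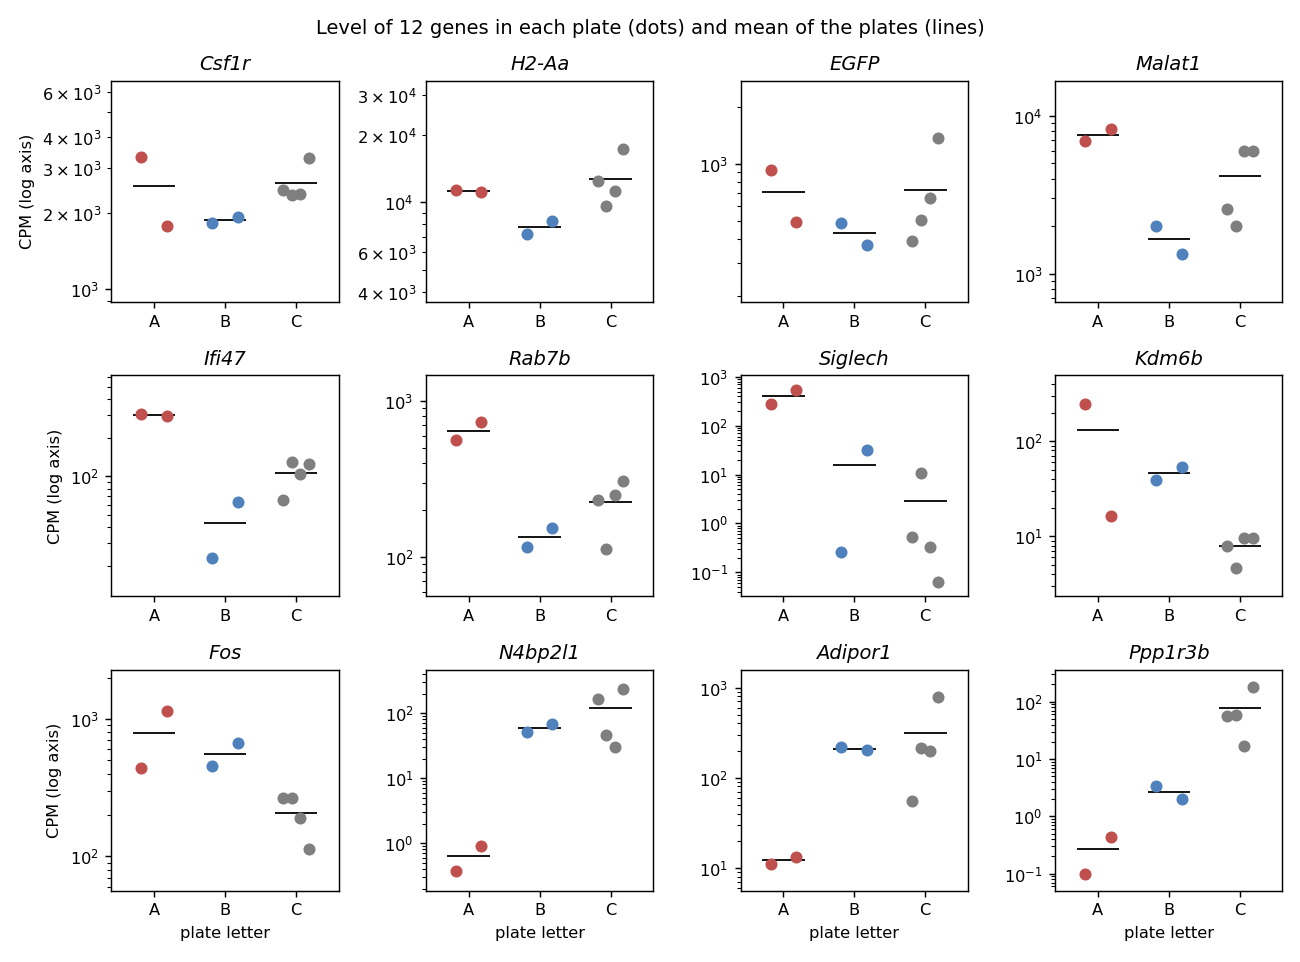
Dots give the TMM-scaled CPM (log axis) of 12 genes in each plate, by letter, with the mean of the plates as a line. On this scale Malat1, Ifi47 and Siglech have both A plates above all B and C plates, N4bp2l1 and Adipor1 have both A plates below all others, and Ppp1r3b lies in the order A, B, C without overlap.

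Between A and C, 1 of the 12 genes named as higher on A was Siglech, the plasmacytoid dendritic cell receptor (chromosome 7, 55768178 to 55778925, plus strand). It had 8446 and 2400 reads on A, 15 and 858 on B and 21, 556, 13 and 1 on C, which is 284 and 533 CPM, 0.264 and 31.2 CPM and 0.533, 10.6, 0.326 and 0.0643 CPM (7.13 ± 1.98 for A over C). Both A plates lay above every other plate. In wells, Siglech reached 10 CPM in 3 of 67 on plate 1 (4.48%, exact 95% interval 0.933 to 12.5%) and in 7 of 22 on plate 5 (31.8%, 13.9 to 54.9%). It did so in 1 of 78 and 9 of 54 wells on B, and in 1 of 82, 4 of 82, 0 of 51 and 1 of 37 on C. The share on plate 1 thus lay within the range of C, and 94.6% of the reads of plate 5 came from 1 well. An exact two-sided permutation test of the well shares over plates gave p = 0.133 for A against C, where the smallest possible is 0.0667. In sums of wells, more cells of a type and more RNA per cell cannot be told apart.

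Other plasmacytoid genes followed in part. Ccr9, a chemokine receptor of these cells and of gut-homing lymphocytes, had 19.9 and 28.9 CPM on A, 0 and 3.09 on B and 0.0508, 0, 0.0753 and 0 on C, and 1 well gave 99.2% of its reads on plate 5. Cox6a2, a mitochondrial subunit known in these cells and in muscle, had 24.3 and 22.9 CPM on A, 2.37 and 0.837 on B and 2.36, 1.03, 0 and 0 on C, again with 99.4% of the highest plate's reads from 1 well. Bst2 and Tcf4 overlapped: Tcf4, the factor that specifies plasmacytoid dendritic cells, had 195 and 33.98 CPM on A and 163, 59.8, 54.4 and 129.9 on C. In all, 3 of the 7 genes of the list that were tested lay above C on both A plates, under both scalings. The background over all genes was 5.90% above and 7.34% below (4.50% and 8.31% with total reads).

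Also named as higher on A was Kdm6b. Kdm6b, which removes repressive methyl groups from histone H3, had 245 and 16.4 CPM on A, 38.7 and 53.1 on B and 7.996, 4.68, 9.69 and 9.64 on C (4.03 ± 1.09). Plate 1 stood well above plate 5, and B lay between. Clk3, a kinase of splicing factors, had 140.0 and 179 CPM on A, 61.3 and 61.6 on B and 13.7, 16.1, 15.2 and 1.03 on C (3.79 ± 1.03), with 58.4% of the plate 5 reads from 1 well. H2afy, the histone variant macroH2A, had 281 and 255 CPM on A and 59.05, 80.1, 58.4 and 47.6 on C (2.13 ± 0.62). By wells A and C overlapped for H2afy, with 35.8 and 63.6% of wells at 10 CPM on A and 48.8, 50, 29.4 and 59.5% on C. Zbtb38, a factor that binds methylated DNA, had 503 and 139 CPM on A and 41.00, 15.3, 41.7 and 1.35 on C. Fos, a subunit of AP-1 induced within minutes of stimulation, had 441 and 1139 CPM on A, 452 and 667 on B and 266, 264, 189 and 112 on C (1.93 ± 0.56). As a mean of log values over wells, the Fos difference for A over C had the opposite sign (-0.46), and 1 well gave 72.8% of its reads on plate 5.

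The remaining genes higher on A were Ssr1, Anxa3, Slc22a5, Naa25, Rb1cc1 and D17H6S53E. Anxa3, a calcium-dependent membrane-binding protein, had 657 and 152 CPM on A and 69.05, 120.0, 91.00 and 52.7 on C. Slc22a5, the carnitine transporter, had 107 and 104 CPM on A and 2.84, 5.75, 0.778 and 0 on C. Rb1cc1, a scaffold that starts autophagy, had 133 and 25.99 CPM on A and 3.17, 6.07, 5.22 and 6.17 on C, with 83.02% of the plate 1 reads from 1 well.

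Lower on A than on C, after N4bp2l1 (-7.63 ± 1.52), was Ppp1r3b, which directs protein phosphatase 1 to glycogen (chromosome 8, 35375739 to 35388139, plus strand). It had 3 and 2 reads on A, 191 and 56 on B and 2251, 3018, 666 and 2788 on C, or 0.101 and 0.444 CPM, 3.36 and 2.04 CPM and 57.1, 57.6, 16.7 and 179 CPM. Every C plate lay above every B plate, and both B plates above both A plates. No fold is given for A, where 3 reads or fewer were found. Ppp1r3b reached 10 CPM in 0% of wells on both A plates, in 2.56 and 3.704% on B and in 14.6, 7.32, 9.804 and 37.8% on C, so wells and reads gave the same order of letters. On plate 8, 96.7% of its reads came from 1 well, and 37.8% of wells carried it. The median kept well there had 35510 reads, so that 1 read passes 10 CPM, which is not so in the median well of other plates. The same limit holds for other shares at 10 CPM on plate 8.

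Xdh, the enzyme that makes uric acid, had 1.95 and 1.33 CPM on A, 73.6 and 14.6 on B and 64.5, 40.7, 63.9 and 402 on C (-6.42 ± 1.58), and reached 10 CPM in 2.99 and 9.09% of A wells and 34.1, 15.9, 21.6 and 48.6% of C wells. Prim1, the catalytic subunit of DNA primase, had 0.235 and 1.11 CPM on A and 12.6, 43.4, 97.4 and 219 on C (-7.23 ± 1.77). Ptgr1, which inactivates leukotriene B4 and prostaglandins, had 0.168 and 0.666 CPM on A and 33.5, 10.98, 32.2 and 178 on C, and Acaa1a, a thiolase of peroxisomal fat breakdown with 87.6% of its plate 8 reads from 1 well, had 7.996 and 13.3 CPM on A and 42.2, 189.9, 101 and 191 on C (-3.62 ± 0.99). Fam20c, a kinase of secreted proteins, had 0.504 and 0.666 CPM on A and 45.9, 103, 7.33 and 134 on C. Fgd4, an activator of the GTPase Cdc42, had 2.49 and 8.22 CPM on A and 70.4, 123, 71.9 and 233 on C (-4.56 ± 1.15). For Xdh, Prim1, Ptgr1 and Fgd4, plate 8 was the highest C plate and 1 well gave 96.7 to 97.7% of its reads there. Adipor1 (-4.69 ± 1.15), Osbpl2, Usp33 and Cpsf7 complete the 12.

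No gene of any list passed edgeR's test for A against C. DESeq2's Wald test called 12 of 316 list genes (3.8%, against 5.29% of all genes), of which Ccr9, Ccl22 and Itgae were higher on A and Synpo, Socs2, Hk1, Cacnb3, Il1r2, Chil3, Ccl5, Kdr and Mertk lower. Ccl22 and Itgae rest on plate 5 alone, where 1 well gave 99.4 and 100% of their reads, and both were at 0 on plate 1. Over all genes, both A plates lay above every C plate in 5.90% and below in 7.34% (4.50% and 8.31% with total reads). Of the interferon list 5 of 20 genes lay above and none below (4 of 20 and none with total reads), with a median of 0.77 against -0.33 for all genes. Under TMM these were Ifi47, Ifit3, Ifit3b, Oasl2 and Iigp1, an immunity-related GTPase with 33.6 and 55.3 CPM on A and 12.2, 0.134, 27.7 and 0.386 on C. As a mean of log values over wells the list's median was -0.0038 against -0.12 for all genes. Of the MHC class I list 2 of 11 genes lay above and 1 below under TMM, and none above and 2 below with total reads. The 2 above under TMM were Tap1 and Tapbp. Tap1, a subunit of the peptide transporter, had 277 and 836 CPM on A and 120.1, 222, 171 and 7.201 on C, and Tapbp, which loads peptides onto MHC class I, 667 and 773 CPM on A and 538, 341, 300.0 and 307 on C. Cd86, the costimulatory ligand for T cells, had 888 and 241 CPM on A and 112, 155, 204 and 21.4 on C (2.20 ± 0.81). Below C on both A plates were Spp1 (-2.22 ± 0.82), Apoe, the lipid carrier (7203 and 1282 CPM on A, 7833, 14252, 19735 and 19932 on C, -1.86 ± 0.67), and Adgre1 (569 and 348 on A, 1219, 725, 649.5 and 1346 on C). Under TMM the macrophage, mononuclear phagocyte, and matrix and repair lists each had 1 gene below C and 1 above. The lipid and lysosome list had 2 below and 1 above. With total reads the macrophage list had 3 below and 0 above, and the lipid and lysosome list 3 below and 1 above. Mertk, a receptor for the uptake of dead cells, had 0.269 and 4.66 CPM on A and 49.9, 49.8, 9.24 and 18.6 on C. Mcm6, a subunit of the replicative helicase, had 16.7 and 21.3 CPM on A and 108, 102, 85.05 and 573 on C (-3.52 ± 1.09), while Mki67 and Top2a overlapped. Of the cell cycle list 2 of 18 genes lay below and 1 above under TMM, and 2 below and 0 above with total reads. Its fold changes were positive in 8 of 18 genes.

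Ace, the angiotensin-converting enzyme and a mark of nonclassical monocytes here, was 1 of 3 markers whose well shares lay lower on both A plates than on every C plate, with Treml4, a further mark of these monocytes, and the endothelial gene Pecam1. It reached 10 CPM in 6 of 67 and 1 of 22 wells on A, and in 18 of 82, 13 of 82, 10 of 51 and 8 of 37 on C, or 8.96 and 4.55% against 15.9 to 22.0%. The exact two-sided permutation test over plates gave p = 0.0667, the smallest possible with 2 against 4 plates, and 1 after adjustment over 102 tests of 34 markers. With wells thinned to 20000 reads the shares were 5.97 and 0% on A and 16.2 to 22.0% on C. At 1 CPM the shares of all 3 markers overlapped, with Ace in 29.9 and 18.2% of A wells and 25.5 to 40.2% of C wells. Other genes of the Ace monocyte list overlapped at 10 CPM as well, among them Adgre4 (28.4 and 36.4% on A, 14.6 to 48.6% on C) and Nr4a1 (32.8 and 40.9%, and 31.4 to 59.5%). In summed reads none of the 8 genes of that list lay below or above C on both A plates under TMM, with a median log2 fold change of -0.0074, and 1 lay below with total reads. Ace itself overlapped, with 23.9 and 0.888 CPM on A and 38.5, 78.2, 53.9 and 2.19 on C.

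B against C had the fewest genes at an unadjusted p under 0.05 (405), and the B plates had the highest correlation among plates of 1 letter (Spearman 0.837 across genes). Genes higher on B than on C were led by Fos (1.43 ± 0.56), Clk3 (2.42 ± 1.01) and Kdm6b (2.52 ± 1.06), the same genes as for A over C. Those comparisons share the C plates, so this is not a separate observation. Suv39h1, which methylates histone H3, had 15.6 and 60.8 CPM on B and 7.39, 6.300, 0.452 and 0.193 on C, with A at 38.2 and 199.7. Ncoa5, a coactivator of nuclear receptors, had 42.1 and 54.4 CPM on B and 6.83, 2.62, 11.95 and 0.514 on C. Tollip, an adaptor that dampens Toll-like receptor signalling, had 67.2 and 151 CPM on B and 41.6, 20.2, 22.6 and 1.29 on C (2.35 ± 1.09). Zc3h12d, of the family of RNases that limit cytokine messages, had 18.2 and 50.4 CPM on B and 7.87, 3.398, 13.6 and 0.643 on C. Trim27, Gpr180, Sugp2, Ctnnd2 and Eml4 complete the 12. These last genes, Tollip and Zc3h12d did not reach an unadjusted p under 0.05 in edgeR's test (0.056 for Tollip to 0.106 for Eml4).

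Keg1, an acyltransferase-like gene known for its expression in kidney, was nearly absent from B. It had 3 and 1 reads on the B plates and 1822, 4324, 4935 and 67 on the C plates, or 0.0527 and 0.0364 CPM against 46.3, 82.6, 124 and 4.31 CPM, and 0.0672 and 2.44 CPM on A. On plate 7, its highest plate, 1 well gave 88.8% of its reads. Wells with Keg1 at 10 CPM made up 0% on both B plates and 17.1, 12.2, 13.7 and 13.5% on C. No fold is given against 3 reads and 1 read. On the C plates proximal tubule markers summed to 468 to 1979 CPM, on B to 261 and 699.7, and on A to 2519 and 55.3, and the part of tubule RNA in the Keg1 level was not tested. Parp9, a partner of interferon signalling, had 13.5 and 12.3 CPM on B and 113, 102, 35.7 and 97.5 on C (-2.75 ± 1.08). Gab3, an adaptor downstream of Csf1r, had 16.3 and 27.1 CPM on B and 58.2, 47.7, 247 and 159 on C (-2.56 ± 0.98). Nrp1, the coreceptor neuropilin 1, had 99.4 and 109 CPM on B and 227, 166, 369 and 636 on C (-1.75 ± 0.73). Tbl1xr1, a part of corepressor complexes, had 24.8 and 29.9 CPM on B and 136, 99.98, 227 and 738 on C (-3.46 ± 1.03). On plate 8, 1 well gave 93.3% of the Nrp1 reads and 97.1% of the Tbl1xr1 reads. Ano6, a phospholipid scramblase, had 29.03 and 35.2 CPM on B and 62.6, 147, 207 and 226 on C. Ppp1r3b, Rnft1, Slfn1, Hist1h1d, Appl2 and H2-Aa were the others.

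H2-Aa, the alpha chain of an MHC class II molecule, was the most highly expressed of these. It had 11409.5 and 11103 CPM on A, 7206 and 8287 on B and 12493, 9597, 11270.0 and 17374 on C, so that B lay below every other plate under TMM. With total reads B still lay below every C plate, but plate 1 lay below both B plates. The log2 fold change of B over C was -0.71 ± 0.29, and every well on each letter carried the gene at 1 CPM or more. Over all genes B lay below C without overlap in 3.48% and above in 5.76% (1.74% and 9.53% with total reads). In the MHC class II list 5 of 12 genes lay below (2 of 12 with total reads), and 1 of 12 fold changes was positive, against 6279 of 14858 over all genes. The list's median was -0.83 against -0.21 for all genes. It was -0.31 against 0.16 with total reads, -0.42 against -0.09 in thinned wells and -0.53 against 0.04 as a mean of log values over wells. Besides H2-Aa the genes below under TMM, of which H2-Aa and Cd74 also lay below with total reads, were H2-Eb1 (7069 and 7766 CPM on B and 12341, 9281, 8927 and 22000.4 on C), Cd74 (18252 and 18848 CPM on B and 24233, 20913, 26027 and 48715 on C), H2-Oa and Ctss, the protease that trims the Cd74 chain (3270.4 and 2667 CPM on B and 4084, 3460.4, 4549 and 8479 on C). None passed edgeR's test. DESeq2's Wald test called 4 of 316 list genes for B against C (1.27%, against 0.639% of all genes), among them Cacnb3, Il1r2 and Col1a1, which were lower on B.

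In the immediate early list, Fos and Egr1 lay above C on both B plates, with Egr1 at 292 and 281 CPM on B and 12.9, 39.2, 263 and 50.7 on C, and Dnajb1, a heat shock cochaperone, lay below under TMM. With total reads 6 of 18 lay above and none below. Cx3cr1, the fractalkine receptor of macrophages and monocytes, had 257 and 1302 CPM on A, 671 and 536 on B and 1055, 948, 937 and 3331 on C. Csf1r, at 3315 and 1779 CPM on A, 1830.4 and 1921 on B and 2471, 2357, 2368 and 3279.7 on C, lay below C on both B plates under TMM (-0.48 ± 0.37), but overlapped C with total reads. Of the macrophage markers, C1qa had 2308 and 2093 CPM on B against 2911, 2563, 2644 and 6407 on C, and like Csf1r it overlapped C with total reads. Of the macrophage list 2 of 10 genes lay below C under TMM, and with total reads none lay below and 1 above. Of the monocyte markers Ccr2 overlapped, with 879 and 1039 CPM on B and 1699.7, 967, 965 and 818 on C.

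**Figure D5:**
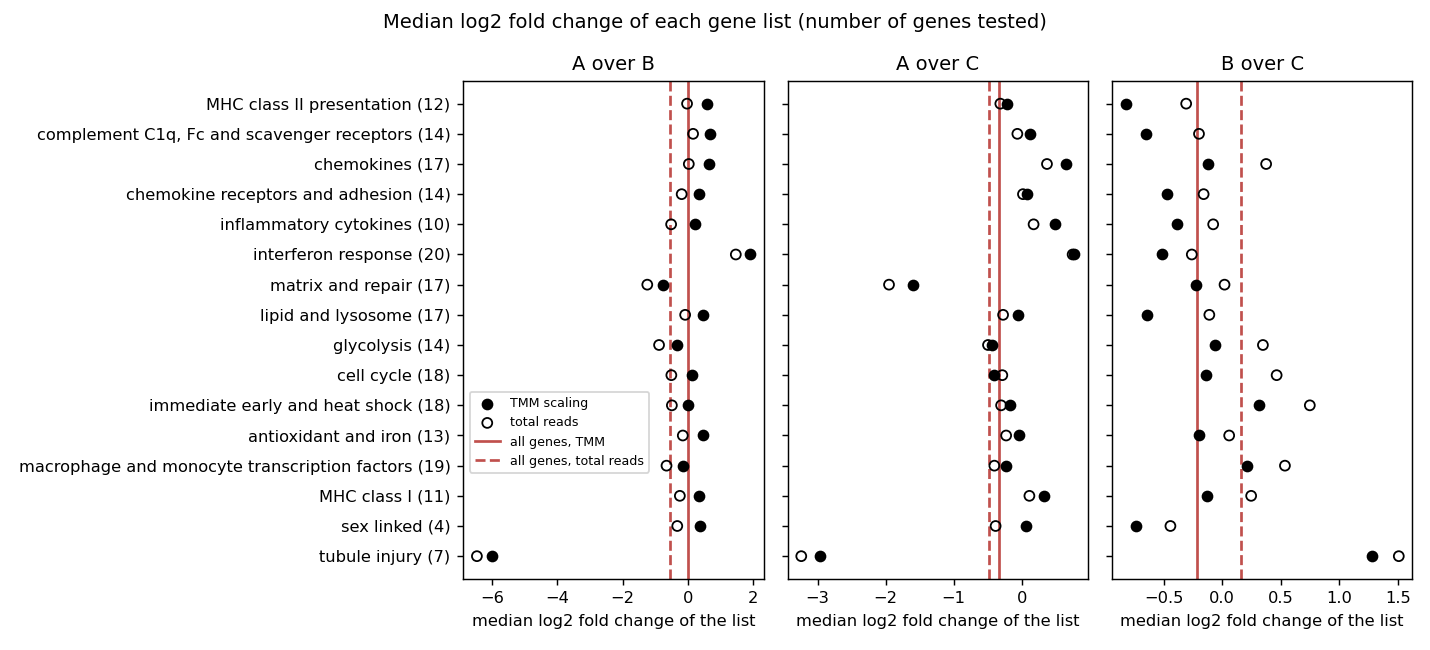
Each row is a gene list with the number of genes tested, and the x axis is the median log2 fold change of its genes for A over B, A over C and B over C, with filled dots for TMM scaling and open dots for total reads. Red lines mark the median of all 14858 genes (solid for TMM, dashed for total reads): the interferon list lies to the right of both lines for A over B (1.92 and 1.48) and A over C, and MHC class II presentation lies to the left of both for B over C.

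The table also carries an entry for the reporter EGFP, whose origin the labels do not give. EGFP had 928 and 490.2 CPM on A, 484 and 373 on B and 391, 505, 656 and 1363 on C, and was at 10 CPM or more in 77.6 and 95.5% of wells on A, 91.03 and 92.6% on B and 96.3, 92.7, 94.1 and 100% on C. Plate 1 had the lowest share of wells but the second-highest summed level. With wells thinned to 20000 reads the share of wells with an EGFP read was 53.7% on plate 1 and 80.4 to 97.3% on the others.

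Across the 3 comparisons the rule named 63 different genes. In 30 of them over 50% of the reads on the highest plate came from 1 well, and the share from that well ranged from 13.8 to 98.3%. Of the 1368 fold changes of these genes under the alternatives tried, 40 passed the adjusted threshold in DESeq2's test or without the gene filter. The 102 tests of marker shares could not pass, since the smallest possible p was 0.333 for A against B and 0.0667 for the others. As a comparison that crosses the letters, plates 1 to 4 were tested against plates 5 to 8 with letter as a term. Over 12023 genes edgeR called 0, with 576 (4.79%) at an unadjusted p under 0.05 and a lowest adjusted p of 0.98, and DESeq2 called 734 (6.1%). The share of genes below an unadjusted p of 0.05 between sets thus lay between those for B against C and A against C.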

How the data were processed

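Per the labels, 1 sample of the series holds 8 Smart-seq2 plates. The authors deposited raw read counts per gene and well, not normalized, for 51912 genes, 92 spike-ins and EGFP. The submitters' processing notes name GRCm38, mm10, STAR and Cell Ranger without a role, and which of them made this table, the counter's settings and its use of strand are not given in the sources used here. Genes that overlap or have near-identical copies are therefore uncertain. Gene symbols were matched by Ensembl identifier to the gene list of the sham droplet library of the series (28532 identifiers with a symbol). Gene positions were matched by the same identifier to GENCODE M21.

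The letters, the gene lists and the members were chosen with earlier results of these data known. Wells with at least 20000 gene reads and 1000 genes were summed per plate, and the plate was the unit. Spike-ins were left out of library sizes. No doublet caller was run. Genes were filtered with edgeR's filterByExpr by letter, and edgeR 4.0.16 in R 4.3.3 tested A, B and C by the quasi-likelihood test with TMM factors (0.626 to 1.31) and Benjamini-Hochberg adjustment over all genes, with a threshold of 0.05. Printed CPM of plates are on the TMM scale, and those of single wells on total gene reads. Genes named were to be those past the threshold with plates that do not overlap. As none passed, the rule's fallback was used: the 12 with the smallest p in each direction whose plates do not overlap, with a mean of at least 30 CPM in the higher letter and at 1 CPM or more in at least 20% of its wells. Mitochondrial, ribosomal protein, immunoglobulin, haemoglobin and unnamed genes were left out, and members of the lists and EGFP were also named. Shares of wells were compared by exact two-sided permutation over plates (scipy 1.17.1), and intervals are exact binomial at 95%. Reads carry no molecular identifiers, so intervals cover counting error only. The fit was tested on simulated counts. Alternatives were DESeq2 1.42.0 (size factors and Wald test), no gene filter, stricter wells (362), wells thinned to 20000 reads, phagocyte wells, each pair of letters alone, a plate set block and each plate left out. Total reads without TMM, limma 3.58.1 on mean log2 values of wells, and leaving out plates 5 and 8 were added after seeing the data. Values of some list genes are not reported here.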

Additional observations from a re-analysis of the deposited data

Results flagged for a closer look

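Among the 4 C plates, 104 sets of values were examined by Dixon's criterion for a single plate apart from the other 3, and 12 met it, 6 of them on plate 8. Chance gives about 1 in 20 for normally distributed values. That rate need not hold here, since CPM are skewed and some shares tie at 100%. Plate 8 was far above the other C plates in CPM for Slfn1 (262, others 23.8 to 45.0), Xdh (402, others 40.7 to 64.5), Ptgr1 (178, others 10.98 to 33.5), Rnft1 (998, others 51.7 to 176) and Hist1h1d (180.1, others 12.6 to 32.5), and far below them for Clk3 (1.03, others 13.7 to 16.1). On plate 8, 1 well gave 97.7% of the reads of each of Slfn1, Xdh and Ptgr1, 82.8% of those of Hist1h1d and 39.0% of those of Rnft1. Plate 4 was above the others in CPM for Siglech (10.6, others 0.0643 to 0.533), Gpr180 (14.6, others 0.321 to 1.17) and Ctnnd2 (11.6, others 0 to 1.117). Ptprc, the pan-leukocyte surface phosphatase, had 1204 CPM on plate 3 and 866 to 917 on the others. In shares of wells at 10 CPM or more, Csf1r was at 98.8% on plate 4 and Apoe at 98.8% on plate 3, each against 100% on the others. These last 2 are 1 well of 82 below a ceiling at which the other plates tie, so they do not show a plate far from the rest.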

How the results depend on the processing

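The count of genes called was 0 for A against B, A against C, B against C and plates 1 to 4 against 5 to 8, and it was 0 under every alternative run except 2. DESeq2's Wald test called 211, 786, 95 and 734 genes in that order, and edgeR without the gene filter called 3, 70, 0 and 11. Leaving out each plate in turn gave 0 to 0 calls. Without an A or a B plate that letter has 1 plate, which is assumed to vary like the others. Limiting to phagocyte wells changed nothing by construction, since all 473 wells qualified. The 102 tests of marker shares had 0 passes under each setting, which the design fixes, since no p could be below 0.0667. Of the named genes' fold changes, 3 of 1368 reversed, all as means of log values over wells: Ptprc (-0.81) and Mbnl1 (-0.0092) for A over B, and Fos (-0.46) for A over C. These genes were chosen for plates that do not overlap, so a direction kept in thinned wells or with a plate left out is no sign of stability. No plate number is shared between letters. A fit with the plate set, plates 1 to 4 or 5 to 8, as a block gave 0 calls. Scaling by total reads moved the median log2 fold change of all genes from 0.00 to -0.54 for A over B, from -0.33 to -0.48 for A over C and from -0.21 to 0.16 for B over C. Precision is limited by 2 plates for A and for B, 22 wells on plate 5 and 76.8% of plate 8's reads from 5 wells.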
